A study of Mus musculus with 16 samples.

Results

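Transcripts of 10 genes that form or mark blood vessels were followed in the mammary gland of mice kept alone or in groups. The genes were the growth factors Vegfa and Vegfb, the receptors Kdr, Flt1 and Flt4, the angiopoietins Angpt1 and Angpt2 with their receptor Tek, and the junction genes Cdh5 and Pecam1. They were taken by symbol: every probe set, a group of short oligonucleotides that reports on a transcript, whose only annotated gene was one of the 10. This gave 18 of 45101 probe sets, and all 10 genes were among the 18193 genes tested. All mice were female FVB/N animals homozygous for the SV40 large T antigen, a viral oncogene, driven by the C3(1) fragment of the rat prostatic steroid binding protein promoter. No group lacked this transgene. Mice were weaned at 21 days, assigned after a behavioural test to living alone (isolated) or with other females (grouped), and killed in estrus, 6 hours into the dark phase. The thoracic mammary gland was profiled on 16 arrays, with 4 arrays for each pairing of housing with an age of 15 or 20 weeks. The whole gland was extracted, so each value sums over endothelium, fat, epithelium, stroma, muscle and any tumour.

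Vascular endothelial growth factor A is the main signal for vessel growth, and its receptor Kdr (VEGFR2) carries most of that signal in endothelial cells. Flt1 (VEGFR1) binds the same ligand tightly and in a soluble form acts as a decoy. Angpt1 activates the receptor tyrosine kinase Tek (TIE2) and steadies mature vessels, while Angpt2 competes with it. In the mammary gland the vessels run through a bed of fat, and both fat and epithelium are known sources of vascular growth factors.

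Vegfa and Vegfb encode related ligands, of which Vegfb passed the test of age in both housings and Vegfa in neither, so the sequence before the start of each is shown. RefSeq (GRCm38.p6) held windows for 6 of the 10 genes, and 3 of 7 windows lay outside the annotated gene. The window shown for Vegfa, 1 of 2 held for that gene, was chr17:46032378-46032627 and that of Vegfb chr19:6987652-6987901, both on the minus strand, each 250 bases written 5′ to 3′. Capitals mark matches, on either strand, to the ETS core GGAAG or to the hypoxia-inducible factor core, ACGTG or GCGTG. The cyclic AMP response element TGACGTCA was searched too and no matches of different motifs overlapped.
Vegfa: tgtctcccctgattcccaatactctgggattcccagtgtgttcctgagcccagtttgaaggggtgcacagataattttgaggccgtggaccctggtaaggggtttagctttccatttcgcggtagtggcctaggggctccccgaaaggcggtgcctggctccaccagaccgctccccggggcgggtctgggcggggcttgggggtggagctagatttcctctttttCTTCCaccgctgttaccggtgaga
Vegfb: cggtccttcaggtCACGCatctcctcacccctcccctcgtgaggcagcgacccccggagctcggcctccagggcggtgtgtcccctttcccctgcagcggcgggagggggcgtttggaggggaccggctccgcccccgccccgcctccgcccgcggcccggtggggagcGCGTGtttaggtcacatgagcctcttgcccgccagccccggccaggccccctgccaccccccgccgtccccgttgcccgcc
The window shown for Vegfa held 1 ETS core and 0 hypoxia cores, while the second window of Vegfa, chr17:46025164-46025413 inside the annotated gene, held 1 ETS core and 2 hypoxia cores. The window of Vegfb held 0 ETS cores and 2 hypoxia cores. None of the 3 held TGACGTCA. Of 32851 windows of the same length, 64.1% held an ETS core, 38.6% a hypoxia core and 1.55% TGACGTCA. The letters describe these windows only.

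Levels are log2 values. Array medians lay between 8.09 and 8.11 at 15 weeks and between 8.31 and 8.34 at 20 weeks, so the arrays of each age had a distribution of their own. Age and any separate array run cannot be told apart. Levels below are therefore given net of the median of their array, and age differences are differences of these net values. Housing differences within an age are differences of the deposited values. For a gene with several probe sets the one with the highest mean was used. No pair of arrays of a group was a duplicate, as the SD of their difference was 0.115 or more. Since the labels leave unsaid whether every array came from its own mouse, p-values describe only the spread among these arrays. Of the 18 probe sets, the Angpt2 probe set 1459636_at lay below the lower quartile of its array on all 16 arrays. Of 25 further endothelial markers, 24 lay above the lower quartile on all arrays and 1, Sele, below it on all. Most probe sets lie above a lower quartile by definition, so this count does not measure endothelial content.

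**Figure D1:**
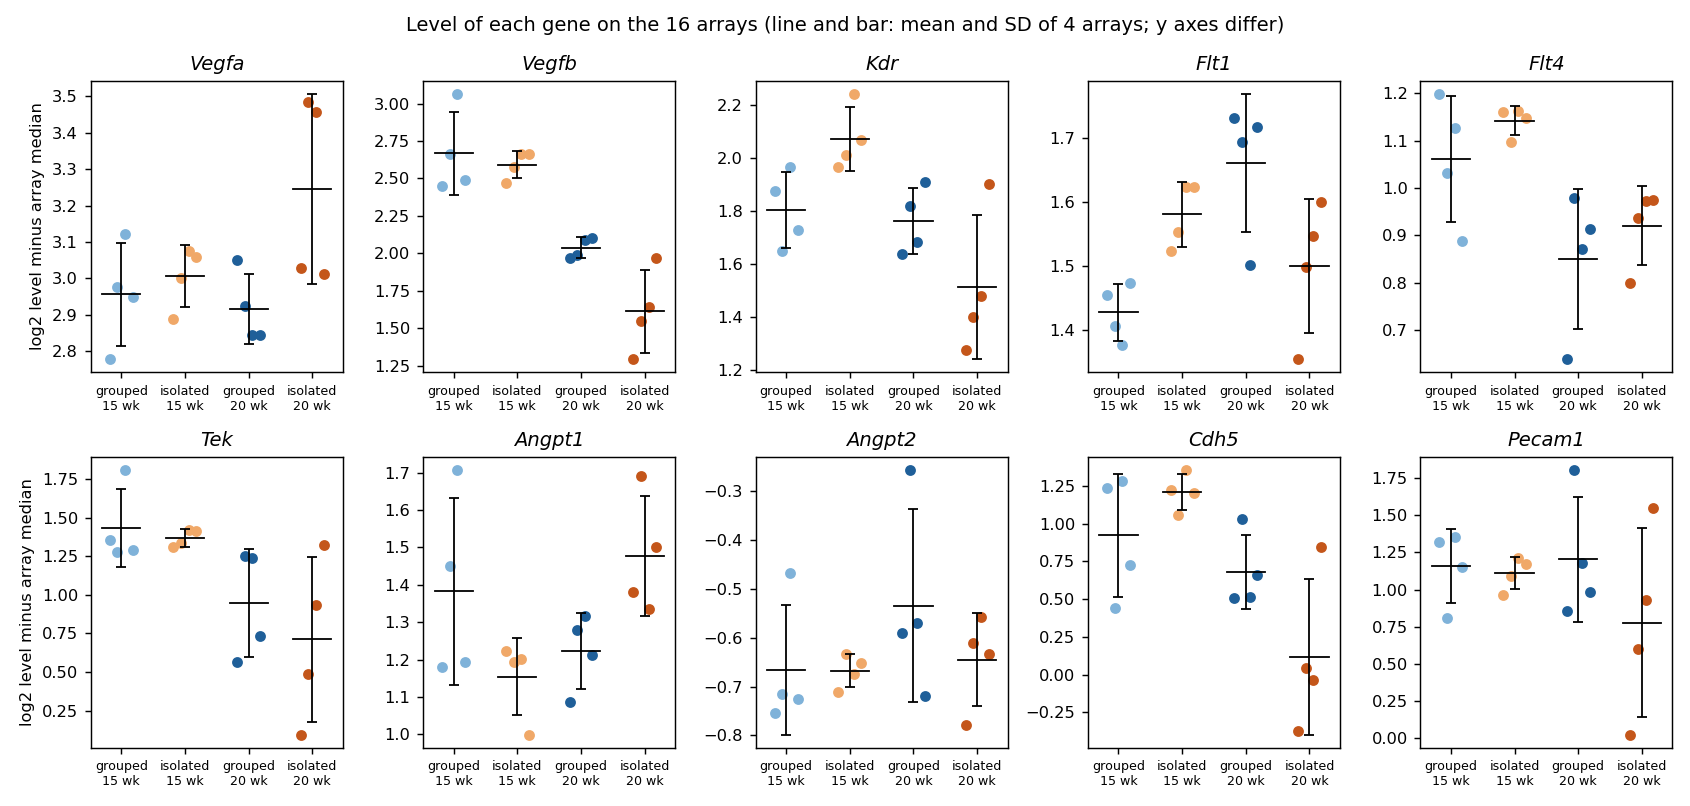
Level of each of the 10 genes on 16 arrays, as the log2 value minus the median of the array, by housing and age. Points are arrays, lines are means and bars are SD (n = 4). Isolated mice at 20 weeks had the widest spread for Cdh5, Pecam1 and Tek, with SDs of 0.52, 0.64 and 0.53, and Vegfb was lower at 20 than at 15 weeks in both housings.

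The first question was whether vascular transcripts differed with housing. At 15 weeks, 0 of the 10 genes passed an adjusted p of 0.05 (limma), where 0.044% of all genes did. At 20 weeks 0 of the 10 passed, where 0.011% of all genes did. An unadjusted p under 0.05 was reached by 2 of the 10 genes at 15 weeks (Kdr and Flt1), as by 9.7% of all genes, and by 4 of the 10 at 20 weeks (Vegfb, Angpt1, Vegfa and Cdh5), as by 8.49% of all genes. The 2 housings did not overlap for Kdr and Flt1 at 15 weeks, as for 5.69% of all genes, and for Vegfb and Angpt1 at 20 weeks, as for 4.2% of all genes. The median housing difference of the 10 genes was 0.03 at 15 weeks and -0.20 at 20 weeks, where the median of all genes was -0.01 at both ages.

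The second question was how these transcripts differed between 15 and 20 weeks. In grouped mice 2 of 10 genes passed, Flt1 higher and Vegfb lower, where 37.3% of all genes passed. In isolated mice 6 of 10 passed, where 50.2% of all genes did. There Angpt1 was higher, and Vegfb, Cdh5, Tek, Kdr and Flt4 were lower at 20 weeks, Flt4 by the probe set used for the gene, while its second probe set was higher. Of all genes, 17.8% were higher and 19.4% lower in grouped mice, and 26.5% were higher and 23.8% lower in isolated mice. The 2 ages did not overlap for 3 of the 10 genes in grouped mice (background 35.7%) and for 5 of 10 in isolated mice (background 47.4%). When every probe set was fitted, 5 of the 10 genes had a probe set that passed in grouped mice, where 37.9% of all probe sets did. A gene with several probe sets has more chances to pass, and no share of all genes was counted this way. Flt4 was among the 5, through 1421442_at at 0.30, while its other probe set gave -0.21. No difference between the share of the 10 genes and that of all genes was tested.

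**Figure D2:**
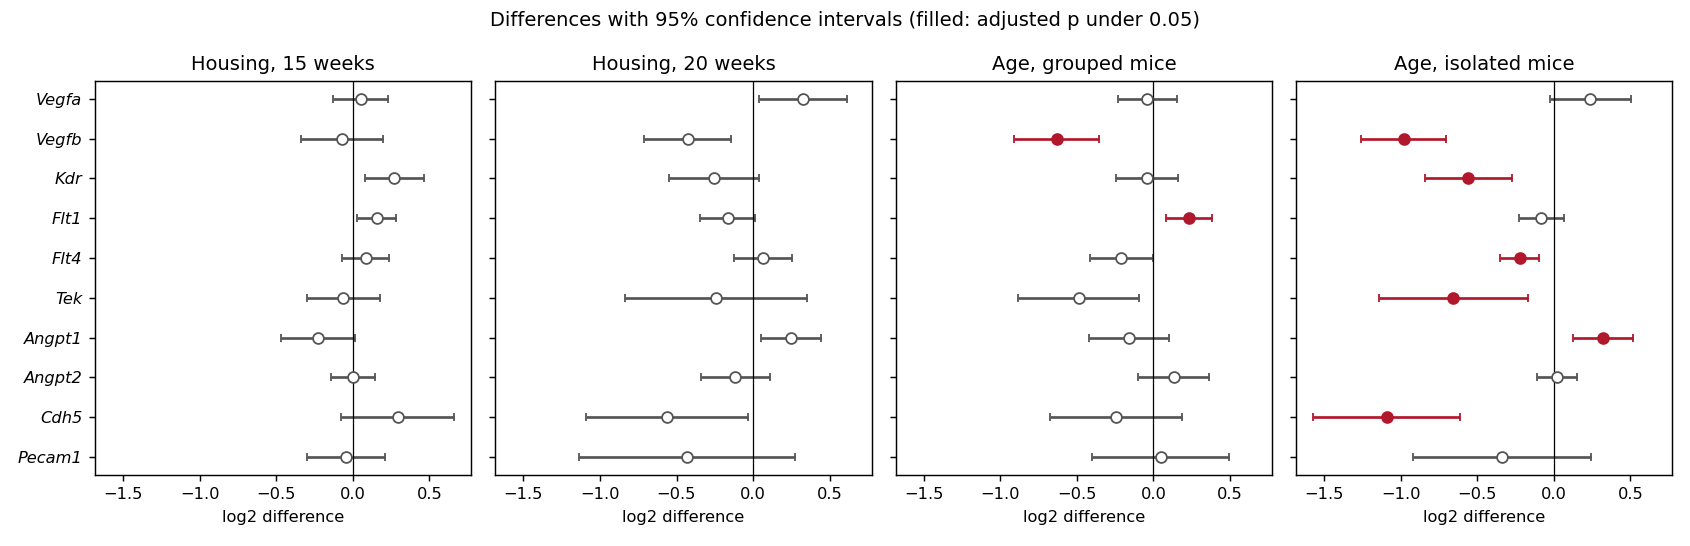
Log2 differences of the 10 genes with 95% confidence intervals in 4 comparisons of 8 arrays each, isolated minus grouped in the left pair and 20 minus 15 weeks in the right pair. Filled points have an adjusted p under 0.05. There are 0 filled points for housing, 2 for age in grouped mice and 6 for age in isolated mice.

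Among the ligands, Vegfb was lower at 20 weeks in both housings. VEGF-B is a ligand of Flt1 that is abundant in fat, muscle and heart. In grouped mice its net levels were 2.45, 2.67, 3.06 and 2.49 at 15 weeks and 1.97, 1.99, 2.09 and 2.10 at 20 weeks. In isolated mice they were 2.47, 2.58, 2.66 and 2.66 at 15 weeks and 1.30, 1.55, 1.64 and 1.97 at 20 weeks. Every array of 20 weeks lay below every array of 15 weeks, and the 4 isolated arrays of 20 weeks lay below the 4 grouped ones, by a narrow margin for replicate 4. The age difference was -0.63 (SE 0.12, adjusted p = 0.0044) in grouped mice, a 1.55-fold lower level. In isolated mice it was -0.98 (SE 0.12, adjusted p = 0.00027), a 1.97-fold lower level. Without removal of the array medians the difference in grouped mice was -0.40 and passed, where 11362 of 18193 genes passed. At 20 weeks the housing difference was -0.43 (SE 0.13, adjusted p = 0.50), which did not pass. The interaction, the housing difference at 20 weeks minus that at 15 weeks, was -0.36 (SE 0.19, adjusted p = 0.43). In a bulk gland, fewer cells of a type and less RNA per cell cannot be told apart.

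Vegfa did not pass in any comparison. Its net levels at 20 weeks were 3.05, 2.93, 2.85 and 2.85 in grouped mice and 3.03, 3.48, 3.46 and 3.01 in isolated mice. Isolated replicates 2 and 3 were the highest of all 16 arrays, and the other two lay within the range of the grouped arrays. The housing difference was 0.32 (95% interval 0.04 to 0.61, adjusted p = 0.58) and the second probe set gave 0.36. At 15 weeks the levels ran from 2.78 to 3.12 in grouped mice and from 2.89 to 3.08 in isolated mice. The age difference was -0.04 (SE 0.09, and 0.19 without removal of the array medians) in grouped mice and 0.24 (SE 0.12, adjusted p = 0.12) in isolated mice. The latter passed, at 0.46, without removal of the array medians, where 12119 of 18193 genes passed. The age difference in isolated mice also passed when isolated replicate 1 or 4 of 20 weeks was left out. These were the lower arrays of that group, so leaving out either raises the difference. In those fits 9063 and 8964 of 18193 genes passed.

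Kdr, the main signalling receptor, was lower at 20 weeks in isolated mice. Its net levels there were 1.97, 2.01, 2.24 and 2.07 at 15 weeks and 1.27, 1.40, 1.48 and 1.90 at 20 weeks. The groups did not overlap, and isolated replicate 4 of 20 weeks stood apart, close to the 15-week arrays. The difference was -0.56 (SE 0.13, adjusted p = 0.0053), a 1.47-fold lower level, and -0.34 without removal of the array medians (adjusted p = 0.038). Without that removal 12119 of 18193 genes passed. In grouped mice the levels were 1.87, 1.65, 1.97 and 1.73 at 15 weeks and 1.64, 1.82, 1.68 and 1.91 at 20 weeks. These overlapped throughout, with a difference of -0.04 (SE 0.09, adjusted p = 0.75), and 0.19 without removal of the array medians.

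The housing difference of Kdr was 0.27 (SE 0.09, adjusted p = 0.39) at 15 weeks, with no overlap between the groups, and -0.25 (SE 0.13, adjusted p = 0.61) at 20 weeks. The interaction was -0.53 (SE 0.16, adjusted p = 0.23), so the change of sign did not pass. At 15 weeks the Gapdh control probe sets, whose 3′ minus 5′ value tracks RNA integrity, averaged -0.063 ± 0.025 (SD, n = 4) in grouped and -0.013 ± 0.021 in isolated mice. Its ranges, -0.090 to -0.034 in grouped and -0.034 to 0.016 in isolated mice, barely overlapped. A fit with this value as a covariate can therefore hardly tell housing from RNA integrity at 15 weeks. The Kdr difference in that fit was 0.02. The same value for actin overlapped more, from 0.225 to 0.304 in grouped and from 0.252 to 0.308 in isolated mice. With either value as a covariate 0 of the 10 genes passed for housing at either age. Neither was used in the age comparisons.

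Flt1 was higher at 20 weeks in grouped mice. Its net levels were 1.45, 1.41, 1.38 and 1.47 at 15 weeks and 1.73, 1.70, 1.50 and 1.72 at 20 weeks. Replicate 3 of 20 weeks was lowest but still above every 15-week array. The difference was 0.23 (SE 0.07, adjusted p = 0.023), a 1.18-fold higher level, and 0.47 without removal of the array medians. The call did not pass without replicate 2 or 3 of 15 weeks or without replicate 1, 2 or 4 of 20 weeks, with adjusted p up to 0.067. In isolated mice the levels were 1.52, 1.55, 1.62 and 1.62 at 15 weeks and 1.36, 1.50, 1.55 and 1.60 at 20 weeks. The groups overlapped and the difference was -0.08 (SE 0.06, adjusted p = 0.32), and 0.14 without removal of the array medians.

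The 4 probe sets of Flt1 gave different directions in isolated mice. Each probe set was fitted among all 45101, of which 37.9% passed with age in grouped and 49.9% in isolated mice. Probe sets 1440926_at and 1454037_a_at gave age differences of 0.32 (adjusted p = 0.0035) and 0.25 (adjusted p = 0.018) there, while 1419300_at gave -0.28 and 1451756_at -0.08, neither of which passed. In grouped mice the 4 differences were all above 0, from 0.23 to 0.65, and 3 of 4 passed. The soluble and full-length forms of Flt1 are known to differ at the 3′ end, but which form each probe set reports was not analysed here. At 15 weeks the housing difference of Flt1 was 0.16 (SE 0.06, adjusted p = 0.45) with no overlap between groups, as for 5.69% of all genes. For 1419300_at and 1454037_a_at the groups overlapped there. At 20 weeks the housing difference of Flt1 was -0.17 (SE 0.08, adjusted p = 0.60), and the interaction was -0.32 (SE 0.09, adjusted p = 0.21).

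Flt4 (VEGFR3), the receptor of lymphatic endothelium, gave opposite age differences from its 2 probe sets. Probe set 1444052_at, the one used for the gene, had net levels in isolated mice of 1.16, 1.10, 1.16 and 1.15 at 15 weeks and 0.80, 0.94, 0.97 and 0.97 at 20 weeks. Probe set 1421442_at had 0.35, 0.57, 0.38 and 0.35 at 15 weeks and 0.65, 0.69, 0.67 and 0.65 at 20 weeks. On every 20-week array the first lay below, and the second above, every 15-week array. The gene was called lower, at -0.22 (SE 0.06, adjusted p = 0.0097), whereas 1421442_at was higher by 0.25 (adjusted p = 0.0075). In grouped mice 1421442_at was higher by 0.30 (adjusted p = 0.0084) and 1444052_at differed by -0.21 (adjusted p = 0.096). Without removal of the array medians the gene's difference in isolated mice was 0.0012 (adjusted p = 0.99). No direction with age is therefore given for Flt4.

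**Figure D3:**
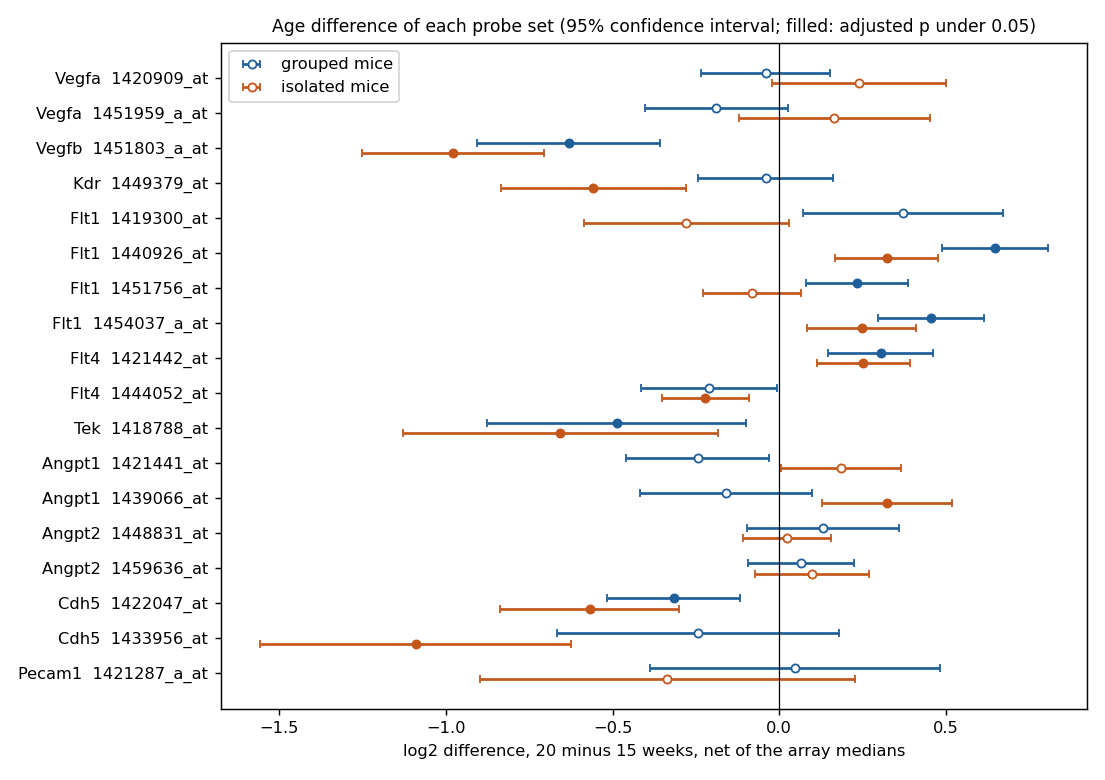
Age difference, 20 minus 15 weeks, net of the array medians, of each of the 18 probe sets in grouped and isolated mice, with 95% confidence intervals. Filled points have an adjusted p under 0.05 over all 45101 probe sets. The 2 probe sets of Flt4 lie on opposite sides of 0 in both housings, those of Flt1 do so in isolated mice, and both of Cdh5 lie below 0.

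Of the angiopoietins, Angpt1 was higher at 20 weeks in isolated mice. Its net levels were 1.22, 1.19, 1.20 and 1.00 at 15 weeks and 1.38, 1.69, 1.33 and 1.50 at 20 weeks. The groups did not overlap. The difference was 0.32 (SE 0.09, adjusted p = 0.013), a 1.25-fold higher level, and 0.55 without removal of the array medians. The second probe set, 1421441_at, gave 0.19 (adjusted p = 0.080), which did not pass. In grouped mice the age difference was -0.16 (SE 0.12, adjusted p = 0.30), or 0.07 without removal of the array medians, and the interaction was 0.47 (SE 0.15, adjusted p = 0.23). At 20 weeks the housing difference of Angpt1 was 0.25 (SE 0.09, adjusted p = 0.57) with no overlap between groups, as for 4.2% of all genes. For 1421441_at it was 0.17 and the groups overlapped. The corresponding difference at 15 weeks was -0.22 (SE 0.11, adjusted p = 0.53) with overlap. For 1421441_at it was -0.25 without overlap, where 5.69% of all genes had none.

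Angpt2 lay below the array median on all 16 arrays, between -0.78 and -0.26. The 4 groups overlapped, and no difference passed. The age differences were 0.13 (SE 0.10) in grouped and 0.02 (SE 0.06) in isolated mice. Without removal of the array medians they were 0.36 and 0.25 and passed. In those fits 11362 of 18193 genes passed in grouped mice and 12119 in isolated mice, and the differences include the shift of the array medians.

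Tek, the angiopoietin receptor, had lower means at 20 weeks in both housings. In grouped mice the net levels were 1.36, 1.28, 1.81 and 1.29 at 15 weeks and 0.56, 1.25, 1.24 and 0.73 at 20 weeks. In isolated mice they were 1.31, 1.33, 1.42 and 1.41 at 15 weeks and 0.10, 0.49, 0.94 and 1.33 at 20 weeks. All 4 grouped arrays of 20 weeks lay below those of 15 weeks, while isolated replicate 4 of 20 weeks reached the 15-week range. The difference in isolated mice was -0.66 (SE 0.22, adjusted p = 0.030), a 1.58-fold lower level. It was -0.43 and did not pass without removal of the array medians, and the call was lost without any 1 of the 4 isolated arrays of 15 weeks or without isolated replicate 2 of 20 weeks. In grouped mice it was -0.49 (SE 0.18, adjusted p = 0.054), which did not pass over genes, and it passed over all probe sets (adjusted p = 0.0497). The interaction of Tek was -0.18 (SE 0.31).

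The junction gene Cdh5 encodes VE-cadherin, which holds endothelial cells together. Its level was lower at 20 weeks in isolated mice. The net levels were 1.23, 1.06, 1.35 and 1.20 at 15 weeks and -0.38, 0.04, -0.04 and 0.84 at 20 weeks. Replicate 1 was lowest and replicate 4 highest of the 20-week arrays, and none reached the 15-week range. The difference was -1.09 (SE 0.21, adjusted p = 0.0025), a 2.13-fold lower level. The second probe set, 1422047_at, gave -0.57 (adjusted p = 0.0034). In grouped mice the levels were 1.24, 0.44, 1.28 and 0.73 at 15 weeks and 0.51, 1.03, 0.52 and 0.66 at 20 weeks. These overlapped, and the difference was -0.24 (SE 0.19, adjusted p = 0.34), and 0.05 with array weights. Probe set 1422047_at gave -0.32 and passed (adjusted p = 0.020), although its groups overlapped. Before removal of the array medians its means in grouped mice were 7.37 at 15 weeks and 7.28 at 20 weeks. Those of the probe set used for the gene were 9.02 and 9.00.

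At 20 weeks the housing difference of Cdh5 was -0.56 (95% interval -1.09 to -0.04, adjusted p = 0.58). The second probe set, 1422047_at, gave a smaller one, -0.18 (95% interval -0.47 to 0.11), and 0.08 at 15 weeks. For the probe set used for the gene, the difference at 15 weeks was 0.29 (SE 0.17, adjusted p = 0.58). It was -0.27 with the Gapdh 3′ minus 5′ value as a covariate. That value barely overlapped between the housings at 15 weeks, so the fit can hardly tell housing from RNA integrity. The interaction was -0.86 (SE 0.31, adjusted p = 0.29). None of these passed.

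Pecam1, the adhesion molecule CD31 of endothelium that platelets and leukocytes carry too, did not pass in any comparison. Its net levels at 20 weeks were 0.86, 1.81, 1.18 and 0.98 in grouped mice and 0.02, 0.60, 0.93 and 1.55 in isolated mice. The lowest and the second highest of these 8 arrays were both from isolated mice. The housing difference was -0.43 (95% interval -1.14 to 0.27, adjusted p = 0.69). The age difference was 0.05 (SE 0.20) in grouped mice and -0.34 (SE 0.26, adjusted p = 0.30) in isolated mice. The latter passed, at -0.59, without isolated replicate 4 of 20 weeks, the highest array of its group. In that fit 8964 of 18193 genes passed.

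The order of the group means differed between genes. Vegfb, Kdr, Cdh5, Tek and Pecam1 had their lowest mean in isolated mice at 20 weeks, while Vegfa and Angpt1 had their highest mean there. For Vegfb the first 2 steps of the order, from isolated to grouped at 20 weeks and on to isolated at 15 weeks, had no overlap. Kdr was highest in isolated mice at 15 weeks, and only that last step had no overlap. All neighbouring groups overlapped for Cdh5, Pecam1, Vegfa, Flt1, Flt4, Angpt1 and Angpt2. For Tek the step from grouped at 20 weeks to isolated at 15 weeks was the only one without overlap.

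No member passed the interaction test, where 0.011% of all genes did. Of all genes 12.7% had an unadjusted p under 0.05 in that test, as did Kdr, Flt1, Cdh5 and Angpt1. These 4 passed when arrays were weighted by their fit, where 778 of 18193 genes passed. The age comparisons in grouped and isolated mice use different arrays, so a gene that passed in 1 housing and not in the other is not shown to differ between them.

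The arrays of isolated mice at 20 weeks differed among themselves in vascular transcripts. The mean deposited level of the 25 further endothelial markers was 8.80, 9.04, 9.27 and 9.53 in replicates 1, 2, 3 and 4. Kdr, Cdh5, Pecam1 and Tek were likewise lowest in replicate 1 and highest in replicate 4. The mean of 13 white adipocyte markers on the same arrays was 10.12, 10.78, 10.63 and 11.56, and that of 14 skeletal muscle markers 11.71, 12.51, 12.61 and 12.31. The mean of 10 fibroblast markers was 11.96, 12.57, 12.67 and 12.75, that of 13 pericyte and smooth muscle markers 9.81, 10.11, 10.24 and 10.44, and that of 14 macrophage markers 10.66, 11.38, 11.43 and 11.21. Fat, fibroblast and pericyte markers were thus also lowest in replicate 1 and highest in replicate 4, and muscle and macrophage markers were lowest in replicate 1. In grouped mice at 20 weeks the adipocyte mean ran from 11.36 to 11.64 and the endothelial mean from 9.20 to 9.60.

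**Figure D4:**
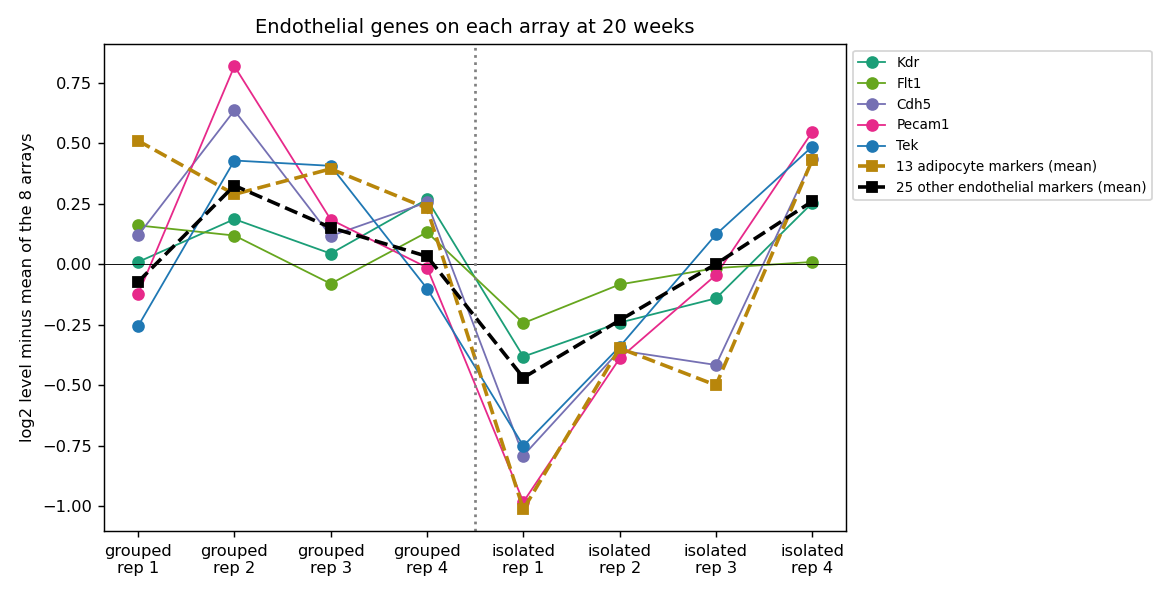
Log2 level of 5 endothelial genes and the mean of 13 adipocyte and 25 further endothelial markers on the 8 arrays of 20 weeks, each as the deviation from its mean over these arrays. Isolated replicate 1 is the lowest array for Kdr, Flt1, Cdh5, Pecam1, Tek and both list means. The dotted line separates the housings.

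Fat and muscle markers were followed in the same comparisons. Of all genes, 19.4% were lower and 17.8% higher in grouped mice, and 23.8% were lower and 26.5% higher in isolated mice. In grouped mice 13 of 13 adipocyte markers passed as lower at 20 weeks (median -0.86). They were led by Aqp7, a glycerol channel of fat cells, at -1.51 (adjusted p = 0.00014). In isolated mice 12 of 13 passed as lower, and all 13 differences were below 0 (median -1.55). Of 14 skeletal muscle markers, 11 passed as lower in isolated mice, and all 14 differences were below 0 (median -0.81). In grouped mice 3 passed as higher and 0 as lower, while 10 of the 14 differences were below 0 (median -0.15). The mean deposited level of the adipocyte list lay between 11.96 and 12.51 in grouped and 11.84 and 12.13 in isolated mice at 15 weeks, and between 11.36 and 11.64 in grouped and 10.12 and 11.56 in isolated mice at 20 weeks. All 13 adipocyte markers lay above the lower quartile on every array. At 20 weeks, 13 of 13 adipocyte markers had a negative housing difference (median -0.70) and 0 passed. The part of fat and muscle content in the differences of Vegfb, Kdr, Cdh5 and Tek was not tested.

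The further endothelial markers were lower in isolated mice at 20 weeks than at 15 weeks in 11 of 25 and higher in 2, with a median difference of -0.40. Of all genes 23.8% were lower and 26.5% higher there, so the share called in either direction was near the background of 50.2%. The lowest p among them were those of Emcn, a sialomucin of venous and capillary endothelium, at -0.68 (adjusted p = 0.0011), Mmrn2, a matrix protein of vessels, at -0.49 (adjusted p = 0.0012), and Sox18, a vascular transcription factor, at -0.83 (adjusted p = 0.0012). Leaving out 1 array gave 9 to 14 lower. In grouped mice 4 were lower and 3 higher, with a median of -0.15, where 19.4% of all genes were lower and 17.8% higher. Among those, Tal1, a transcription factor of blood and endothelial cells, was lower, at -0.35 (adjusted p = 0.00083), whereas the leukocyte adhesion receptors Selp and Sele differed by 0.45 (adjusted p = 0.013) and 0.37 (adjusted p = 0.019). Sele lay below the lower quartile on all arrays, so its difference is not read as a change in level. The median of all genes was -0.0023 in grouped mice and 0.012 in isolated mice. At 20 weeks 22 of 25 had a negative housing difference (median -0.22), and 0 passed, as at 15 weeks.

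**Figure D5:**
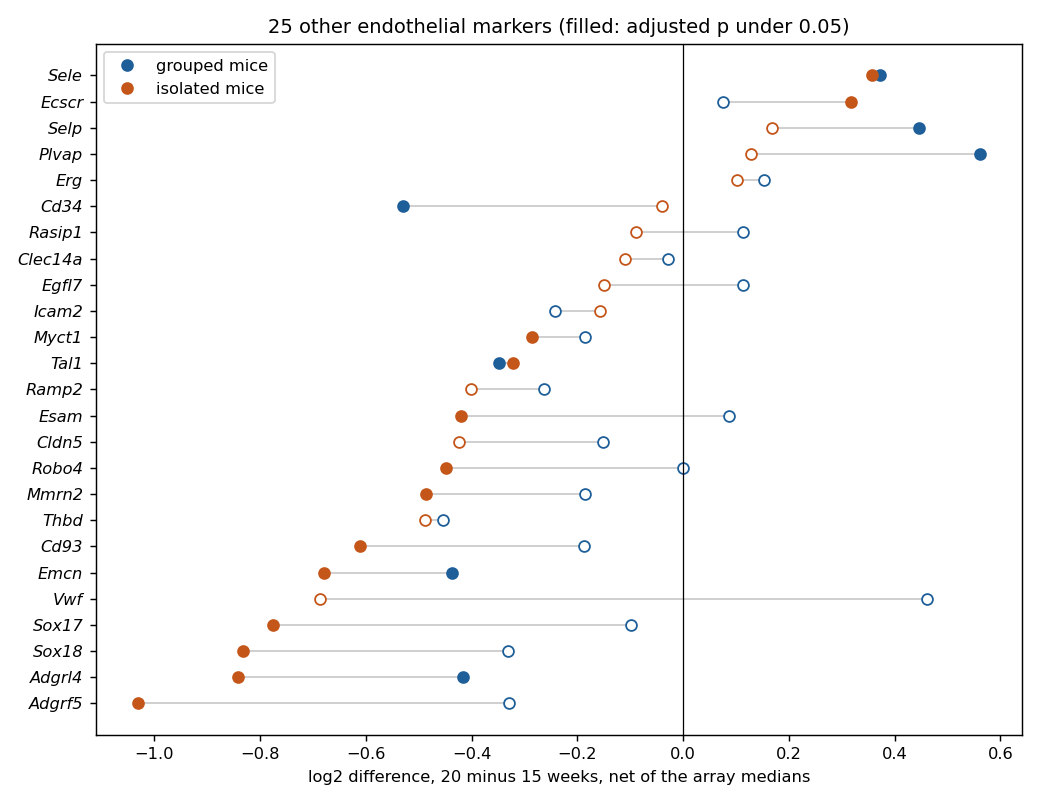
Age difference, 20 minus 15 weeks, net of the array medians, of 25 further endothelial markers in grouped and isolated mice. Filled points have an adjusted p under 0.05. In isolated mice 11 filled points lie below 0 and 2 above, and in grouped mice 4 below and 3 above.

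Of 23 partners of the VEGF, Notch and TIE pathways, 5 were higher and 6 lower at 20 weeks in isolated mice (median -0.09), near the 50.2% of all genes that passed. Dll1, a Notch ligand, differed by -0.42 (adjusted p = 0.00072), Nos3, the endothelial nitric oxide synthase, by -1.07 (adjusted p = 0.00097), and Esm1, a marker of sprouting tip cells, by 0.84 (adjusted p = 0.0015). Esm1 lay below the lower quartile of the array on all arrays. In grouped mice 2 were higher and 4 lower (median 0.07), where 37.3% of all genes passed, with Notch1, a Notch receptor, at 0.50 (adjusted p = 0.0053), Nos3 at -0.62 (adjusted p = 0.0068) and Acvrl1, an endothelial receptor of BMP9, at -0.50 (adjusted p = 0.0084). Nos3 thus passed as lower in both housings.

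Of 6 angiogenesis inhibitors, 2 were higher and 1 lower at 20 weeks in isolated mice (median -0.08), a share like the 50.2% of all genes. The thrombospondins Thbs1 and Thbs2, matrix proteins that restrain endothelial cells, were higher by 1.06 (adjusted p = 4.8e-05) and 0.95 (adjusted p = 0.00015), and Tnmd was lower, at -0.30 (adjusted p = 0.0025). In grouped mice 0 were higher and 2 lower (median -0.20, where 37.3% of all genes passed), Tnmd at -0.29 (adjusted p = 0.0045) and Serpinf1, the pigment epithelium-derived factor, at -0.90 (adjusted p = 0.012). At 20 weeks the housing difference of Thbs2 was 0.83 (SE 0.17, adjusted p = 0.42), which did not pass. The groups did not overlap, as for 4.2% of all genes.

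A list of 18 genes taken as hypoxia-induced held Vegfa, and also the genes of the hypoxia-inducible factors Hif1a and Epas1. Of the 18, 10 were higher and 5 lower at 20 weeks in isolated mice (median 0.38), and 8 were higher and 2 lower in grouped mice (median 0.16). Of all genes 26.5% were higher and 23.8% lower in isolated mice, and 17.8% were higher and 19.4% lower in grouped mice. In isolated mice the glucose transporter Slc2a1 was higher by 0.70 (adjusted p = 5.3e-05), the stress-response gene Ddit4 by 0.86 (adjusted p = 7.4e-05) and the histone demethylase Kdm3a by 0.65 (adjusted p = 0.00012). In grouped mice Bnip3, a mitophagy receptor, was lower, at -0.82 (adjusted p = 0.00047), and P4ha2, a collagen hydroxylase, and Car9, a carbonic anhydrase, were higher by 0.54 (adjusted p = 0.0013) and 0.90 (adjusted p = 0.0077).

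Of 13 pericyte and smooth muscle markers, 4 were lower and 2 higher at 20 weeks in isolated mice (median -0.19), and 1 was lower and 1 higher in grouped mice (median 0.04). All genes passed at 50.2% and 37.3% in these comparisons. Cnn1, a calponin of smooth muscle, was lower in both, at -0.93 (adjusted p = 0.00057) and -0.53 (adjusted p = 0.017). Acta2, smooth muscle actin, which myoepithelial cells make too, was lower, at -0.67 (adjusted p = 0.0023) in isolated mice. Of 7 lymphatic markers, 2 were higher and 1 lower in isolated mice (median 0.33), again near the background of 50.2%, Pdpn, a podoplanin also made by basal epithelium, higher by 0.84 (adjusted p = 0.0012) and Reln lower, at -0.63 (adjusted p = 0.0017). The lymphatic transcription factor Prox1 lay below the lower quartile on all arrays.

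Markers of other cell types that share the gland, some of which carry Pecam1, were followed in the same comparisons. In isolated mice at 20 weeks 5 of 14 macrophage markers were higher and 0 lower (median 0.38), against 0 higher and 4 lower in grouped mice (median -0.53). Of 10 luminal epithelial markers 5 were higher and 2 lower in isolated mice, and 5 higher and 0 lower in grouped mice. Of 7 basal markers 3 were higher and 3 lower in isolated mice, and 2 higher and 0 lower in grouped mice. Of 10 fibroblast markers 1 was higher in isolated mice and 3 were lower in grouped mice. Of 10 lymphocyte markers 2 were lower in each housing, and of 7 platelet markers 1 was higher in isolated mice, and 1 higher and 1 lower in grouped mice. Of all genes 50.2% passed in isolated and 37.3% in grouped mice. With housing, 0 markers of these lists passed, but whole lists lay on 1 side of 0. All 14 macrophage markers had a negative housing difference at 15 weeks (median -0.37), 7 of them with no overlap between groups, and all 14 a positive one at 20 weeks (median 0.55), 1 with no overlap. Of all genes 5.69% had no overlap at 15 weeks and 4.2% at 20 weeks. At 20 weeks all 10 fibroblast markers had a positive difference (median 0.32), and all 14 skeletal muscle markers (median -0.57) and all 10 luminal markers (median -0.09) a negative one. At 15 weeks all 10 fibroblast markers had a negative difference (median -0.11) and all 14 muscle markers a positive one (median 0.07). Of the 10 luminal markers 7 were positive and 3 negative at 15 weeks (median 0.03). Replicate 1 of grouped mice at 15 weeks had a mean lymphocyte marker level of 9.10, where the other arrays of its group lay between 7.86 and 7.89. The part of these cells in the differences of the 10 genes was not tested.

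The genes nearest to Cdh5 in profile were sought over the 16 arrays, each gene standardised within each age, by root mean square distance. The nearest were Epas1, a hypoxia-inducible factor abundant in endothelium (0.32), Adgrf5, an adhesion receptor of endothelium and lung epithelium (0.35), Sparcl1, a matrix glycoprotein (0.37), Abcb1a, a drug efflux pump (0.38), and Shank3, a scaffold protein (0.40). The median distance over all genes was 1.33. Kdr came at 0.43 (rank 7) and Pecam1 at 0.58 (rank 52), while Tek lay at 0.81 (rank 535). Vegfa and Angpt1, at 1.45 and 1.47, were further from Cdh5 than the median gene. Fat and muscle markers also differed between these arrays, with adipocyte means from 10.12 to 12.51 and muscle means from 11.71 to 13.23. The distances are a description and carry no test.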

How the data were processed

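RNA of whole mammary glands was measured on 16 Affymetrix Mouse Genome arrays, 4 per group. The deposited values are log2 levels from RMA in affy, per the submitters' processing notes (no version stated). Of 45101 probe sets, 34945 had 1 symbol in the platform's gene table, 932 several and 9211 none listed, and 34741 of the first matched RefSeq (GRCm38.p6). The 64 control probe sets were left out of the gene tests. One probe set stood for each of 18193 genes, that of highest mean level. Fits used limma 3.58.1 (lmFit, eBayes with trend, R 4.3.3), with 8 arrays per comparison and all 16 for the interaction. P-values were adjusted over all genes by the Benjamini-Hochberg method, and calls were made at 0.05. Age comparisons used values less the array median, which shifted by 0.23 with age.

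The 10 genes and the marker lists were chosen with earlier results of these data known. All 10 genes are named, and of each list up to 3 genes with the smallest p in a comparison. Alternatives were quantile or cyclic loess normalization, no centring, a dim filter at the 40th percentile, other probe sets, eBayes without trend, array weights (statmod 1.5.0), a threshold of 0.1, the replicate block, all 16 arrays in 1 fit, covariates for RNA integrity, and leaving out each array. The probe sets and lists under quantile normalization, and the lists with each array left out, were added after seeing the data. The fits were tested on simulated data. Arrays have no read depth, and their number limits the precision.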

Additional observations from a re-analysis of the deposited data

Results flagged for a closer look

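In 72 groups of 4 arrays (18 probe sets in 4 groups), 5 had an array whose gap to its nearest neighbour exceeded the critical share of the range of the group, which chance does in about 1 of 20 groups. Tek was 9.89 (log2) on replicate 3 of grouped mice at 15 weeks, where the others lay between 9.37 and 9.46. Angpt2 (1448831_at) was 7.62 on the same array, where the others lay between 7.34 and 7.38. Both probe sets of Flt4 stood apart on replicate 2 of isolated mice at 15 weeks, 1421442_at at 8.66 against 8.44 to 8.48 and 1444052_at at 9.19 against 9.26. Angpt1 (1439066_at) was 9.11 on replicate 4 of isolated mice at 15 weeks, where the others lay between 9.28 and 9.32.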

How the results depend on the processing

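The number of the 10 genes that passed stayed at 0 for housing at 20 weeks under all 20 alternatives. For housing at 15 weeks it was 0 except with array weights, where 1 gene, Kdr, passed. For age in isolated mice it stayed between 5 and 8, where 9140 of 18193 genes passed in the main fit. For age in grouped mice it was 2, where 6777 of 18193 genes passed. It became 4 with the most variable probe set, where 8908 genes passed, and 4 at a threshold of 0.1, where 8586 did. Counting a gene when any of its probe sets passed it became 5, and 17080 of 45101 probe sets passed. It ran from 1 to 3 when 1 array was left out, where between 4919 and 6863 genes passed. For the interaction it was 0, became 4 (Kdr, Flt1, Cdh5 and Angpt1) with array weights, and ran from 0 to 1 when 1 array was left out. Kdr passed without isolated replicate 4 of 20 weeks, where 139 of 18193 genes passed. With array weights the number of all genes that passed went from 8 to 494 for housing at 15 weeks and from 2 to 778 for the interaction. Some directions turned. Without centring the age differences in grouped mice of Vegfa (0.19), Kdr (0.19), Angpt1 (0.07) and Flt4 (0.02) and that of Flt1 in isolated mice (0.14) were above 0, none passing in either form. The age difference of Flt4 in grouped mice was 0.047 with the mean of every probe set and 0.30 with the most variable probe set. In isolated mice it was 0.0012 without centring, 0.015 with every probe set and 0.25 with the most variable one. That of Flt1 in isolated mice was 0.053 with every probe set, and that of Cdh5 in grouped mice was 0.049 with array weights. The cause was not tested, apart from the disagreement of the probe sets shown above.

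Leaving out 1 array moved the age difference in isolated mice between -1.33 and -0.93 for Cdh5, between -0.69 and -0.48 for Kdr, between -0.86 and -0.45 for Tek and between -1.10 and -0.87 for Vegfb. Same-numbered arrays did not deviate together in every pair, so the numbers were not taken to pair the samples. With the replicate block 0 of the 10 genes passed for housing at 15 weeks and 0 at 20 weeks, 3 for age in grouped mice and 6 for age in isolated mice. Of all 18193 genes, 17 passed with the block for housing at 15 weeks, against 8 without it, and 3 against 2 at 20 weeks. For age, 6039 passed with the block in grouped mice, against 6777 without it, and 9264 in isolated mice, against 9140. No such fit was made for the interaction.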
